A study of Homo sapiens with 24 samples.

Results

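Folic acid removal in the human acute myeloid leukaemia line IMS-M2, without a BET inhibitor, was examined in 6 of the 24 RNA-seq libraries of a study of folic acid deprivation and OTX. The libraries were chosen by their labels: 3 of IMS-M2 cells cultured without folic acid (-FA) and 3 of cells cultured with it (+FA), all treated with DMSO, the solvent. The other 18 libraries are IMS-M2 cells given OTX and U937 cells, another acute myeloid leukaemia line, given DMSO or OTX, each without and with folic acid. The labels do not spell out OTX, which is read here as OTX015, a BET bromodomain inhibitor also named birabresib. Neither the time without folic acid nor the origin of replicate libraries in separate cultures is labelled, so p-values measure only the spread between these libraries, which may be technical.

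Levels were deposited as FPKM, which counts fragments relative to transcript length and library size, and the read depth is unknown. The -FA libraries and the +FA libraries were deposited in separate tables that may have been normalized separately. For any gene, folic acid and table therefore cannot be told apart in IMS-M2 DMSO alone. A median-of-ratios factor per library, 0.973 to 1.03 across the 6, was divided out. It removes a shift common to all genes of a library and nothing that differs between genes. All levels below are these rescaled FPKM, and changes are differences of log2(FPKM + 1), -FA minus +FA, with the standard error (SE).

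Folic acid is reduced in cells to tetrahydrofolate, which carries single carbon units in the cytosol and in mitochondria. Those units go into purine rings, into the methyl group of thymidylate, and into methionine, the source of the methyl donor S-adenosylmethionine. Rapidly dividing leukaemia cells draw on all of these routes, and antifolate drugs act by blocking them. Cells hold folates as polyglutamates, so a stock can remain inside cells after the vitamin is taken from the medium.

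Of 23595 genes listed, 11028 averaged 1 FPKM or more in -FA or in +FA libraries and were tested. limma called 1004 of them at a Benjamini-Hochberg adjusted p below 0.05, which is 9.1% of the genes tested. The calls were 477 genes higher in -FA cells (4.33%) and 527 lower (4.78%), and the median change over all genes tested was -0.01. Most called changes were small: 22 genes (0.199%) were called and also moved by 1 or more on the log2 scale, 11 in each direction. At an unadjusted p under 0.05 there were 3479 genes. In 35.5% of all tested genes the 3 libraries of each group did not overlap, and in 100% of the called genes. The count of calls depended on single libraries. It was 3934 without +FA library 1, 184 without +FA library 2 and 242 without +FA library 3. It was 74, 69 and 142 without -FA library 1, 2 and 3. Counts of called list members given below without +FA library 1 stand against 3934 of 11033 genes in that fit, 2025 higher and 1909 lower.

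+FA library 1 stood apart from the other 2 of its group. Pearson correlations of log2 values across genes, which are not independent replicates, were 0.9879 to 0.9918 within the -FA group and 0.9737 to 0.9861 within the +FA group, against 0.9635 to 0.9849 between the groups. +FA library 1 correlated with the 3 -FA libraries at 0.9828, 0.9834 and 0.9849, above its 0.9823 with +FA library 2 and its 0.9737 with +FA library 3, which correlated with each other at 0.9861. By this measure +FA library 1 lay nearer to the -FA libraries than to its own group. The median SD of a gene on the log2 scale was 0.0874 among -FA libraries and 0.135 among +FA libraries. Calls also moved with base composition and transcript length. In the tenth of genes with the lowest GC content, 80 were called higher in -FA cells and 13 lower, with a median change of 0.09. In the tenth with the highest GC content 37 were called higher and 60 lower, and the median change was 0.04, of the same sign. In the tenth with the shortest transcripts 71 were called higher and 34 lower, with a median change of 0.04. In the tenth with the longest, 17 were called higher and 49 lower, and the median change was -0.07, of the opposite sign. The part of GC content and length in each gene's change was not tested. With both trends removed from each library, 1397 genes were called. Of the 98 called genes given by the naming rule and reported, all 98 kept their direction under every alternative setting. The following 20 also kept their call under every setting that tested them: H19, ENPP2, CBLN2, KCNK17, MZB1, BCRP3, CD34, MPO, CSF1R and PFKFB4, lower in -FA cells, and S100A4, HPGD, FCER1A, LPXN, CST7, BMF, IL8, HIST1H2AC, HMGCS1 and CYP51A1, higher. The other 78 lost it under at least 1 setting.

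The line's identity was checked with markers. In these 6 libraries 10 of 11 myeloid markers were high enough to test, among them CD33 with 43.9 ± 1.76 FPKM in -FA cells and 46.9 ± 3.38 in +FA cells (mean ± SD, n = 3 each) and KIT with 38.6 ± 2.172 and 32.5 ± 2.18 FPKM in the same order. FLT3 averaged 0.37 FPKM in -FA cells and 0.33 in +FA cells. Of 21 markers of other cell types, 15 were under 1 FPKM in all 6 libraries. 5 of them were listed at 0 throughout, among them MS4A1, which defines B cells, and EPCAM, KRT5 and CDH1, which define epithelia. The highest of the others were the B cell gene CD79A at 20.3 ± 1.96 FPKM in -FA cells and 21.3 ± 2.39 in +FA cells, and the megakaryocyte gene ITGA2B at 72.1 ± 5.08 and 57.9 ± 10.6 FPKM in the same order. GP9, of megakaryocytes, VWF and CDH5, of endothelium, and CD3E, of T cells, averaged 5.55, 6.88, 2.44 and 1.51 FPKM in -FA cells, against 4.58, 4.33, 3.08 and 3.23 FPKM in +FA cells. Of these VWF was called higher and CD3E lower.

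The first question was whether the folate pathway itself changed when its vitamin was absent. limma called none of the 12 folate genes given here for their role, and 0 of the 12 had an unadjusted p under 0.05. TYMS, thymidylate synthase, had 192, 181 and 194 FPKM in -FA cells, against 179, 231 and 285 FPKM in +FA cells. The +FA libraries spanned the -FA values, and the 95% interval of the change was -0.63 to 0.09. SLC19A1, the reduced folate carrier, had 85.8, 81.8 and 80.6 FPKM in -FA cells and 103, 77.0 and 76.9 FPKM in +FA cells, an interval of -0.32 to 0.25.

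Enzymes that load and interconvert the carbon units had the following intervals. SHMT2, which takes a carbon from serine in mitochondria, had a change of 0.01 (95% interval -0.18 to 0.20), and its cytosolic partner SHMT1 one of 0.18 (-0.04 to 0.39). The intervals were -0.33 to 0.18 for MTHFD2, -0.34 to 0.08 for MTHFD1L and -0.30 to 0.08 for MTHFD1, the dehydrogenases and ligases that follow. MTR, methionine synthase, had an interval of -0.29 to 0.17. FPGS, which adds the polyglutamate tail that retains folate, had an interval of -0.08 to 0.40, and GGH, which removes it, one of -0.21 to 0.50. For each of these the interval excludes a log2 change of 1 in either direction. The signs of the changes of SHMT2, MTHFD2, MTR, SLC19A1 and GGH, all near 0, flipped under at least 1 alternative. Without +FA library 1, where 3934 of all 11033 genes tested were called, 4 of the 12 were called. TYMS at -0.44 (adjusted p = 0.0124) and ATIC at -0.30 (0.0161) were lower. SHMT1 at 0.26 (0.027) and FPGS at 0.25 (0.0384) were higher, the adjusted p in parentheses.

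Counted as lists, 0 of 11 tested cytosolic folate genes were higher and 1 was lower, and 0 of 9 mitochondrial folate and glycine cleavage genes were higher and 1 was lower. These shares, 9.09% and 11.1% called, compare with 9.1% of all genes. The lower mitochondrial gene was AMT, the aminomethyltransferase of glycine cleavage, with 2.24, 1.41 and 1.39 FPKM in -FA cells and 3.02, 3.96 and 5.76 FPKM in +FA cells. AMT fell by 0.95 (SE 0.19, adjusted p = 0.0294), and its locus is shared with another gene. The median changes of these lists were 0.05 and -0.07, against -0.01 for all genes. Neither call remained when any 1 of the 5 libraries other than +FA library 1 was left out. Without that one, 2 cytosolic genes were higher and 2 lower, and 2 mitochondrial genes were lower.

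Of 18 methionine cycle genes 2 were lower and 0 higher (11.1% called, against 9.1% of all genes). MAT2A, which makes S-adenosylmethionine and whose transcript is known to be stabilised when that product is scarce, had 151, 159 and 165 FPKM in -FA cells, against 187, 234 and 276 FPKM in +FA cells. All 3 -FA values were lower, and MAT2A fell by 0.53 (SE 0.14, adjusted p = 0.0499). NNMT, a methyltransferase that uses up S-adenosylmethionine, fell by 0.66 and had a mean of 1.04 FPKM in -FA cells and 2.26 FPKM in +FA cells. The count of lower genes was 0 or 1 when any 1 library other than +FA library 1 was left out. It was 7 without that one, where 1909 of all 11033 genes tested were lower.

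Among nucleotide genes, 0 of 16 in purine synthesis passed the limma test in either direction, and 3 had an unadjusted p under 0.05. Without +FA library 1, 3 purine genes were called higher and 5 lower, where 3934 of all 11033 genes tested were called. GART and ATIC, enzymes of the pathway that take carbon from folate, had intervals of -0.12 to 0.29 and -0.44 to 0.08. Of 17 pyrimidine and deoxynucleotide genes, 3 were higher and 1 was lower (23.5% called, against 9.1% of all genes). DUT, the dUTPase that keeps uracil out of DNA, had 226, 200 and 195 FPKM in -FA cells, against 160, 155 and 133 FPKM in +FA cells, and rose by 0.47 (SE 0.11, adjusted p = 0.038). DCK, the deoxycytidine salvage kinase, rose by 0.46 and CMPK1, a pyrimidine monophosphate kinase, by 0.39. CAD, which starts pyrimidine synthesis, fell by 0.40, with 34.1, 33.7 and 36.1 FPKM in -FA cells and 44.4, 41.7 and 52.6 FPKM in +FA cells. All 4 calls were lost without any 1 of the 5 libraries other than +FA library 1, and 5 were higher and 3 lower without that one.

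**Figure D1:**
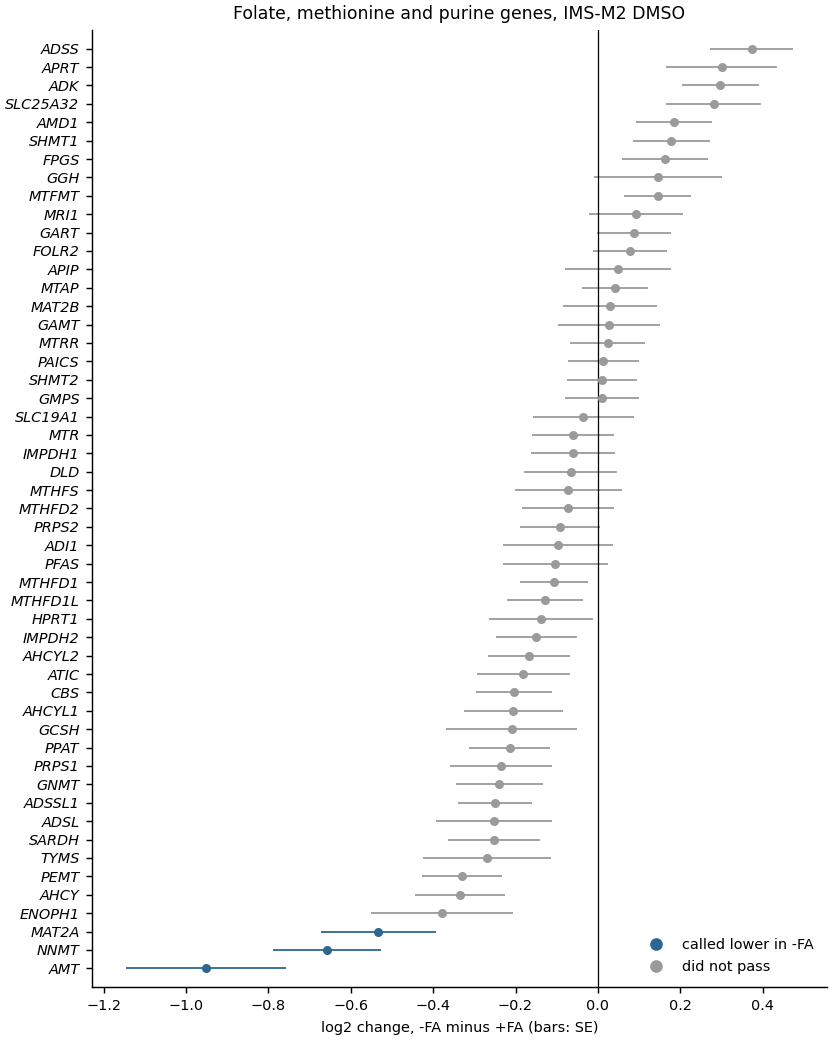
Log2 change, -FA minus +FA, in IMS-M2 DMSO for 51 of the 54 tested folate, methionine and purine genes (point: estimate, bar: SE, 3 libraries per group). MAT2A, NNMT and AMT, in blue at the bottom, were called lower, and none of those plotted was called higher. Of the 54 tested, 4 were called.

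Sterol synthesis genes gave the largest share of higher calls of the lists followed. These enzymes build cholesterol from acetyl-CoA through mevalonate, and the SREBP transcription factors raise most of them together when membrane sterol is low. In IMS-M2 DMSO libraries 11 of 30 tested sterol and fatty acid genes were higher without folic acid and 0 were lower (36.7% called, against 9.1% of all genes). The median change of the list was 0.19, against -0.01 for all genes. With GC content and length removed, 12 of 29 were higher and 0 lower. Leaving out libraries moved the count widely: 14 higher and 1 lower without +FA library 1, and 2 to 5 higher and 0 lower without any other library. The list was described after earlier results of these data were known.

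At the head of the pathway, HMGCS1 (chr5:43287571-43313614, hg19), the synthase that commits acetyl-CoA to mevalonate, had 25.2, 28.5 and 28.1 FPKM in -FA cells, against 11.9, 15.1 and 15.4 FPKM in +FA cells. Every -FA library lay above every +FA library, and HMGCS1 rose by 0.91 (SE 0.11, adjusted p = 0.00651). MVK, mevalonate kinase (chr12:110011499-110035071), had 16.8, 13.5 and 13.8 FPKM in -FA cells, against 9.92, 8.07 and 6.73 FPKM in +FA cells, and rose by 0.77. MVD, the next decarboxylase, rose by 0.51 and IDI1, the isomerase, by 0.56. FDPS, farnesyl diphosphate synthase (chr1:155278538-155300909, a locus shared with another gene), had 131, 120 and 123 FPKM in -FA cells and 89.5, 89.6 and 85.1 FPKM in +FA cells, and rose by 0.49.

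The later, sterol-specific steps included the largest changes. SQLE, squalene epoxidase, had 40.2, 41.6 and 34.3 FPKM in -FA cells, against 27.2, 18.9 and 14.4 FPKM in +FA cells, and rose by 0.95 (SE 0.20, adjusted p = 0.0302). CYP51A1, the lanosterol demethylase (chr7:91741462-91764059), had 4.45, 4.70 and 4.18 FPKM in -FA cells and 2.02, 1.80 and 1.54 FPKM in +FA cells, and rose by 0.97 (SE 0.09, adjusted p = 0.0034). MSMO1, a methylsterol oxidase of a later step, is not in the list under that symbol. It had 22.4, 21.4 and 18.6 FPKM in -FA cells, against 11.4, 8.89 and 7.51 FPKM in +FA cells, and rose by 1.10 (SE 0.14, adjusted p = 0.00734). LSS rose by 0.39 and HSD17B7 by 0.46. INSIG1, which retains SREBP in the endoplasmic reticulum and is itself an SREBP target, rose by 0.49.

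The other 19 genes of the list did not pass. FASN, fatty acid synthase, had a 95% interval of the change of -0.41 to 0.10 and SCD, the stearoyl-CoA desaturase, one of -0.32 to 0.13. ACACA, which makes malonyl-CoA, had a change of -0.40 (adjusted p = 0.0804). SREBF2, the SREBP gene tied to sterol synthesis, had a change of 0.01, and SREBF1, the one tied to fatty acids, a change of -0.18. FDFT1 (0.36, adjusted p = 0.052) and STARD4 (0.32, adjusted p = 0.0643) were just outside the threshold.

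**Figure D2:**
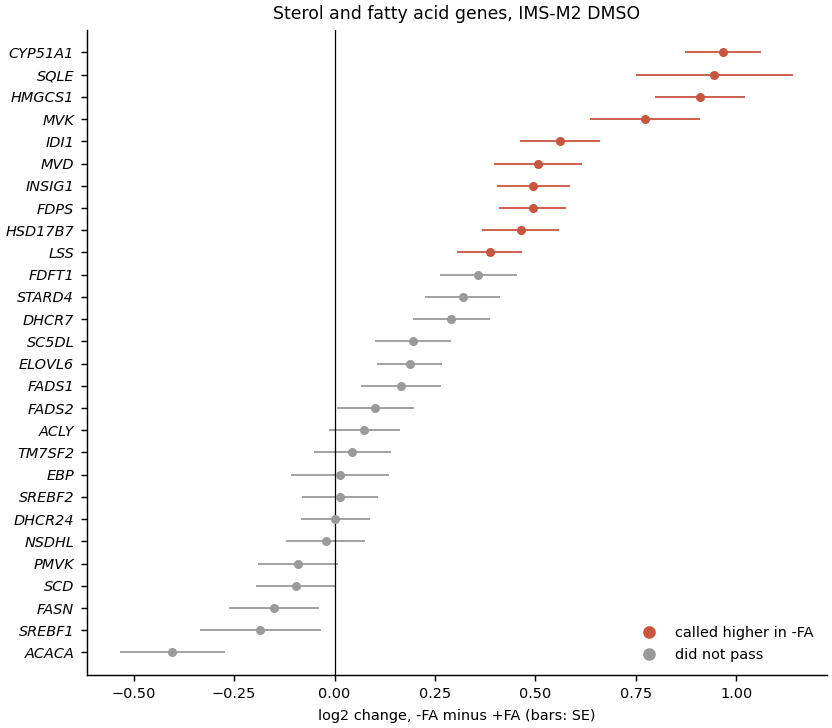
Log2 change, -FA minus +FA, in IMS-M2 DMSO for 28 of the 30 tested sterol and fatty acid genes (point: estimate, bar: SE). The 10 of them called higher, in red, run from LSS at 0.39 to CYP51A1 at 0.97, and SCD, FASN and ACACA lie below 0 without a call.

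Promoters are shown for 3 of the called genes because they move together in these libraries. RefSeq promoters (GRCh38.p14) were matched for 9 of the 11 called list genes and for 14 of the 19 tested genes that were not called. The 250 bases before the start site were searched on both strands for TCACNCCAC, a core sterol regulatory element, and for CCAAT, the box bound by NF-Y, a known partner of SREBP. The sterol element was found in 0 of the 9 called and 1 of the 14 uncalled promoters, and in 0.875% of 27305 promoters of the table. CCAAT was found in 7 of 9 and 8 of 14, and in 33% of all promoters or 35.5% of those of tested genes. HMGCS1 held 2, MVK 5 and FDPS 3. These are matches of letters, and capitals below mark CCAAT or its reverse complement ATTGG, written 5′ to 3′ on the gene's strand.
HMGCS1 promoter (chr5:43313413-43313662, minus strand): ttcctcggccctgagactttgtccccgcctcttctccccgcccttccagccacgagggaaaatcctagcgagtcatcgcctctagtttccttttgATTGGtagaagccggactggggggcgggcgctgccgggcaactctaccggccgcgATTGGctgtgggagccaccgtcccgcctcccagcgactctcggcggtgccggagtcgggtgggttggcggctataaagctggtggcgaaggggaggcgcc
MVK promoter (chr12:109573544-109573793, plus strand): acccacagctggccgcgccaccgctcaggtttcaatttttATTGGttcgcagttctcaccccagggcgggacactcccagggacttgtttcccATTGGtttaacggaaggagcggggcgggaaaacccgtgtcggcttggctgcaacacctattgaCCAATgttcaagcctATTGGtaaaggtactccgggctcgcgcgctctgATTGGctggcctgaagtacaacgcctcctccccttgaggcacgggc
FDPS promoter (chr1:155308616-155308865, plus strand): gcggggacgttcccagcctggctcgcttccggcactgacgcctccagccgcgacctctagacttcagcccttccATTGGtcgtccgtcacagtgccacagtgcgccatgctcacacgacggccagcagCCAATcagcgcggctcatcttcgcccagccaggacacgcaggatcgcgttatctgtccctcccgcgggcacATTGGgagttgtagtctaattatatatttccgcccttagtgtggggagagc

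H19 and S100A4 led the changes in either direction. H19 (chr11:2016405-2019065, a locus shared with another gene), an imprinted long non-coding RNA expressed from the maternal allele and controlled by DNA methylation, had 138, 137 and 137 FPKM in -FA cells, against 527, 418 and 434 FPKM in +FA cells. The groups were far apart, and H19 fell by 1.73 (SE 0.11, adjusted p = 0.000647), the largest fall among called genes that averaged 5 FPKM or more in either group. S100A4 (chr1:153516094-153518282), a calcium-binding protein linked to cell motility, had 94.4, 69.9 and 79.6 FPKM in -FA cells, against 30.9, 25.7 and 21.1 FPKM in +FA cells. It rose by 1.62 (SE 0.15, adjusted p = 0.0034), the largest rise on the same terms.

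The other leading falls were smaller. ENPP2 encodes autotaxin, the secreted enzyme that makes lysophosphatidic acid. It had 1.91, 1.75 and 2.05 FPKM in -FA cells, against 5.09, 7.19 and 7.92 FPKM in +FA cells, and fell by 1.40 (SE 0.14, adjusted p = 0.0034). SPP1, osteopontin, had 12.3, 10.7 and 13.9 FPKM in -FA cells and 22.1, 29.5 and 30.1 FPKM in +FA cells, and fell by 1.08. CBLN2, a secreted synaptic organiser, had 3.56, 3.72 and 3.69 FPKM in -FA cells, against 8.44, 8.56 and 8.57 FPKM in +FA cells, and fell by 1.03 (SE 0.07, adjusted p = 0.00111). KCNK17, a potassium channel, fell by 0.97, ACTA2, smooth muscle actin, by 0.98 and MZB1, an endoplasmic reticulum protein of the B lineage, by 0.96. CD34, described with the stem cell genes, C21orf90, CRIPAK, LOC100505875 and BCRP3 complete the 12 leading falls. C21orf90 and CRIPAK varied among the +FA libraries, where CRIPAK had 4.49, 6.77 and 11.9 FPKM.

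Leading rises included several genes that also varied among +FA libraries. HPGD, which degrades prostaglandins, had 11.4, 12.1 and 11.4 FPKM in -FA cells, against 3.02, 4.58 and 4.33 FPKM in +FA cells, and rose by 1.36 (SE 0.13, adjusted p = 0.0034). LPXN, a leukocyte focal adhesion protein, had 16.5, 15.4 and 16.6 FPKM in -FA cells and 7.27, 7.50 and 8.27 FPKM in +FA cells, and rose by 0.98 (SE 0.08, adjusted p = 0.00249). FCER1A, the alpha chain of the high-affinity IgE receptor of mast cells and basophils, had 5.47, 4.80 and 5.17 FPKM in -FA cells, against 1.73, 2.04 and 2.48 FPKM in +FA cells, and rose by 1.0. BTG2, an antiproliferative p53 target, had 12.9, 11.9 and 11.4 FPKM in -FA cells and 6.65, 4.52 and 4.34 FPKM in +FA cells, and rose by 1.10. By contrast, MRPL54, a mitochondrial ribosomal protein, had 65.2, 58.6 and 58.0 FPKM in -FA cells, against 44.9, 22.7 and 18.8 FPKM in +FA cells. There +FA library 1 lay between the other +FA libraries and the -FA libraries. LOC100507217, PNRC1, MPLKIP and TMEM183A had the same order, with +FA library 1 nearest to the -FA libraries, and TEX30 completes the 12.

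**Figure D3:**
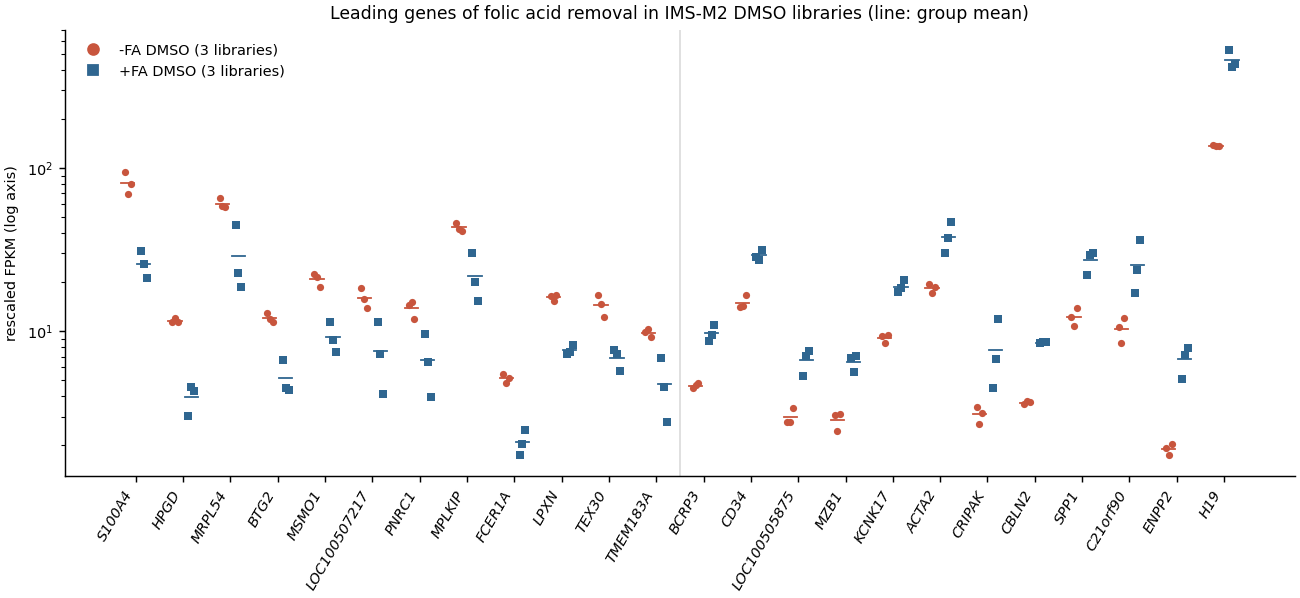
Rescaled FPKM (log axis) of the 12 leading rises, left of the line, and the 12 leading falls, right of it, in each -FA DMSO library (red circles) and +FA DMSO library (blue squares) of IMS-M2, with group means as lines. S100A4 and H19 are the extremes. Leading genes were chosen among those whose groups do not overlap, so the lack of overlap in the 24 follows from the choice.

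Myeloid differentiation genes moved in both directions, and 5 of 10 tested monocyte and macrophage markers were lower. CSF1R, the receptor for the monocyte growth factor M-CSF, had 0.43, 0.45 and 0.46 FPKM in -FA cells, against 1.54, 1.37 and 1.54 FPKM in +FA cells, and fell by 0.78 (SE 0.08, adjusted p = 0.0039). CD68, a lysosomal protein of macrophages, had 11.47, 10.96 and 13.8 FPKM in -FA cells and 21.1, 17.2 and 20.01 FPKM in +FA cells, and fell by 0.65. ITGAM, the integrin CD11b, fell by 0.56 and MRC1, the mannose receptor, by 0.65. None of the 10 was higher, and their median was -0.29, against -0.01 for all genes. The share called was 50%, against 9.1% of all genes. CSF1R and MRC1 reached the 1 FPKM minimum only through +FA cells, so 2 of the 5 lower calls could be made in that direction alone. Another 16 of the list's 26 members were below the minimum. With no filter 23 members could be fitted, of which 4 were lower and 0 higher, with a median of -0.02. With 1 library left out, 1 to 5 members were lower and at most 1 higher. With GC content and length removed 5 were lower. In bulk RNA, fewer cells of a kind and less RNA per cell cannot be told apart.

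Granule and stem cell genes also moved in both directions. MPO, the myeloperoxidase of myeloblast granules, had 0.39, 0.47 and 0.47 FPKM in -FA cells, against 2.22, 1.95 and 2.32 FPKM in +FA cells. It fell by 1.13 (SE 0.09, adjusted p = 0.00178), a change from low levels that the pseudocount of 1 FPKM understates, and it too reached the minimum only through +FA cells. CTSG, the granule protease cathepsin G, had 22.8, 22.7 and 20.9 FPKM in -FA cells and 38.8, 35.3 and 32.7 FPKM in +FA cells, and fell by 0.66. CST7, a cysteine protease inhibitor of leukocytes, went the other way, with 2.85, 2.96 and 2.87 FPKM in -FA cells and 1.27, 1.16 and 0.98 FPKM in +FA cells, and rose by 0.87. Only 5 of the 20 granulocyte and myeloblast genes were high enough to test, of which 1 was higher and 2 lower. That is 60% called, against 9.1% of all genes. CD34, the surface antigen of blood stem and progenitor cells, had 14.003, 14.3 and 16.7 FPKM in -FA cells, against 28.6, 27.5 and 31.7 FPKM in +FA cells, and fell by 0.92 (SE 0.10, adjusted p = 0.00372). ANPEP, the myeloid antigen CD13, had 48.1, 45.8 and 49.3 FPKM in -FA cells and 28.0, 25.2 and 27.6 FPKM in +FA cells, and rose by 0.80 (SE 0.08, adjusted p = 0.00372).

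Of 27 stem cell and HOX genes 3 were higher and 1, CD34, was lower (14.8% called, against 9.1% of all genes). HOXB7 rose by 0.65, HOXB5 by 0.58 and HOXB9 by 0.40, homeobox factors of the HOXB cluster that is active in leukaemias with mutant NPM1. HOXB9 had 40.8, 41.7 and 39.3 FPKM in -FA cells, against 31.5, 29.7 and 30.5 FPKM in +FA cells. HOXA9 had 44.4 ± 2.87 FPKM in -FA cells and 33.0 ± 8.05 in +FA cells, and MEIS1 24.7 ± 0.61 and 27.1 ± 3.91 in the same order, and neither passed. The number of higher HOX and stem cell calls was 0 or 1 without any 1 of the 5 libraries other than +FA library 1, and 9 without that one. Of 10 erythroid and megakaryocyte markers 2 were higher, VWF by 0.57 and GATA1 by 0.38, the last reaching the minimum only in -FA cells. Among 7 lymphoid markers, LCK, a T cell kinase, rose by 0.39 and CD3E, a subunit of the T cell receptor complex, fell by 0.75, at means of 12.4 and 1.51 FPKM in -FA cells and 9.18 and 3.23 FPKM in +FA cells. Of 8 stromal, epithelial and endothelial markers, ANGPT1 and VWF were higher, and KRT8 and PDGFRB lower. The shares called were 20% of erythroid and megakaryocyte, 28.6% of lymphoid and 50% of stromal, epithelial and endothelial markers, against 9.1% of all genes. VWF is counted in the first and the last of these lists. Without any 1 library other than +FA library 1, the first and the last had 0 or 1 higher and 0 lower. Lymphoid markers then had 0 higher and 0 or 1 lower. Without +FA library 1 the higher and lower counts were 3 and 1, 1 and 1, and 3 and 2, in list order.

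Some inflammatory genes under NF-kB were higher. IL8, the neutrophil chemokine, had 5.08, 4.87 and 5.22 FPKM in -FA cells, against 2.45, 2.07 and 2.07 FPKM in +FA cells, and rose by 0.92 (SE 0.09, adjusted p = 0.0034). TNF, the cytokine, had 9.08, 8.26 and 8.54 FPKM in -FA cells and 5.53, 4.24 and 4.04 FPKM in +FA cells, and rose by 0.79. The NF-kB subunits RELB and NFKB2 rose by 0.67 and 0.46, and the inhibitors NFKBIA and TNFAIP3 by 0.41 and 0.35. CCL1, a chemokine, fell by 0.49. Of 22 tested genes of this list 6 were higher and 1 lower (31.8% called, against 9.1% of all genes), with a median of 0.27, against -0.01 for all genes. The count of higher members was 10 without +FA library 1 and 1 to 3 without any other library.

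Interferon-responsive genes had 4 higher and 0 lower of 20 (20% called, against 9.1% of all genes). The median of the list was 0.23, against -0.01 for all genes. The 4 higher included PSMB9, an immunoproteasome subunit, IRF7, a transcription factor of the response, and IFI35, with changes of 0.45, 0.57 and 0.42. None of the 4 remained called when any 1 library other than +FA library 1 was left out, and 8 were called without that one. Of 27 immediate early genes 4 were higher and 1 lower (18.5% called, against 9.1% of all genes). JUND, an AP-1 subunit, had 154, 132 and 113 FPKM in -FA cells and 104, 66.9 and 56.3 FPKM in +FA cells, and rose by 0.84 (SE 0.21, adjusted p = 0.0449). JUNB rose by 0.76, EGR3 by 0.70 and BTG2 as above. EGR3 averaged 1.005 FPKM in -FA cells and 0.24 in +FA cells, so it was tested only because of the group where it is high. PHLDA1, another early gene, fell by 0.62. The higher count here was 12 without +FA library 1 and 0 to 2 without any other library.

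Cell death regulators of the BCL2 family had 3 higher and 0 lower of 15 (20% called, against 9.1% of all genes), with a median of 0.29, against -0.01 for all genes. BMF, a pro-death BH3-only protein, had 4.84, 4.94 and 5.04 FPKM in -FA cells, against 2.48, 1.999 and 2.31 FPKM in +FA cells. BMF rose by 0.87 (SE 0.09, adjusted p = 0.0034). BAD, also pro-death, rose by 0.75 and BCL2A1, which protects cells, by 0.54. BMF was the 1 member higher when any 1 library besides +FA library 1 was left out, and without that one 10 were higher and 1 lower. Of 28 p53 targets 1, BTG2, was higher and 2, FAS and CYFIP2, were lower, by 0.46 and 0.50. The share of p53 targets called was 10.7%, against 9.1% of all genes. CDKN1A, the p53-induced cell cycle inhibitor, had 37.9, 34.8 and 35.1 FPKM in -FA cells, against 30.6, 27.7 and 26.7 FPKM in +FA cells, a change of 0.33 at the threshold that did not pass (adjusted p = 0.05). CDKN1A did pass without +FA library 1 (0.39, adjusted p = 0.00714), with GC content and length removed (0.32, adjusted p = 0.0235) and with all 12 IMS-M2 libraries in the fit (0.33, adjusted p = 0.0167). It did not pass without any 1 other library, with equal FPKM sums, with no rescaling or with no filter. Under OTX CDKN1A fell by 0.33 (limma adjusted p = 0.0415). Its DMSO change minus OTX change was 0.66 (SE 0.12, adjusted p = 0.0128).

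Growth programmes held few calls. MYC had 186, 184 and 180 FPKM in -FA cells, against 190, 199 and 199 FPKM in +FA cells, with a 95% interval of the change of -0.28 to 0.09. HEXIM1, which holds P-TEFb inactive and serves as a marker of BET inhibition, had a change of 0.40 (adjusted p = 0.0754), and TXNIP, a glucose-responsive arrestin, one of -0.23 (adjusted p = 0.111). Both were called without +FA library 1, at 0.53 and -0.29. Of 54 MYC target genes 2 were higher (TFB2M, LYAR) and 2 lower (CAD, HK2), against 5 higher and 11 lower without +FA library 1. Of 43 DNA replication genes 1 was higher, CCNE2, a cyclin of S phase entry, by 0.45, against 6 higher and 4 lower without +FA library 1. Of 40 mitotic genes 3 were higher, CDK1 by 0.57, NDC80 by 0.51 and CKAP2 by 0.39, a share of 7.5% against 9.1% of all genes. With GC content and length removed 1 member was higher and 3 were lower. All 3 of these higher calls were lost without any 1 library other than +FA library 1, and 14 members were higher and 10 lower without that one. Of 79 cytosolic ribosomal protein genes 0 were higher and 1, RPS28, lower, against 10 higher and 21 lower without +FA library 1. The shares called were 7.41% of MYC target, 2.33% of replication and 1.27% of ribosomal protein genes, against 9.1% of all genes. The counts without +FA library 1 stand instead against 3934 of 11033 genes called in that fit. Of 51 nuclear genes of oxidative phosphorylation and 12 of polyamine metabolism limma called 0 in each, and 18 and 1 had an unadjusted p under 0.05. Without +FA library 1, 8 oxidative phosphorylation genes were higher and 20 lower, and 2 polyamine genes lower.

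Glucose-handling genes were lower where they passed. SLC2A1, the glucose transporter GLUT1, had 22.4, 23.3 and 24.8 FPKM in -FA cells, against 35.6, 29.9 and 32.8 FPKM in +FA cells, and fell by 0.46. PFKFB4, which sets the level of fructose 2,6-bisphosphate, had 3.28, 3.62 and 3.81 FPKM in -FA cells and 7.11, 6.04 and 7.06 FPKM in +FA cells, and fell by 0.76 (SE 0.09, adjusted p = 0.00648). HK2, a hexokinase, fell by 0.50 and SLC2A5, the fructose transporter, by 0.41. Of 23 genes in the list 4 were lower and 0 higher (17.4% called, against 9.1% of all genes). The median of the list was -0.21, against -0.01 for all genes. With 1 library other than +FA library 1 left out, 1 member was lower, and without that one 10. With GC content and length removed 5 were lower. VEGFA was the 1 gene lower among 13 of the hypoxia response, with a fall of 0.38 and 0 higher. The share called there was 7.69%, against 9.1% of all genes. The VEGFA call was lost with GC content and length removed and without any 1 library other than +FA library 1.

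In the remaining lists 1 to 3 genes were called each. Most of these calls were lost whichever library other than +FA library 1 was left out, in fits with fewer samples. For serine synthesis, PHGDH, the first enzyme, rose by 0.44, the 1 higher gene of 12. Among 19 amino acid transporters SLC38A1 rose by 0.65, at 1.29 FPKM in -FA cells and 0.46 in +FA cells and so above the minimum only in -FA cells, and SLC43A1 and SLC43A2, which carry large neutral amino acids, fell by 0.56 and 0.46. Of 22 iron and haem genes, SLC40A1, the iron exporter ferroportin, rose by 0.64 and BLVRB, biliverdin reductase, fell by 0.49. Of 34 lysosome and autophagy genes, SQSTM1, the autophagy receptor p62, rose by 0.55, and 2 genes fell, among them CTSB, a lysosomal protease, by 0.46. BAG3 rose by 0.57, the 1 call among 27 heat shock genes. Of 23 histone genes 2 were higher, HIST1H2AC by 0.73 and HIST1H2BK by 0.70, near-identical copies of replication histone genes in polyadenylated form. Of 36 DNA and histone methylation enzymes, which use S-adenosylmethionine, SUZ12 was higher, by 0.42, and MLL, a histone H3 methyltransferase, lower, by 0.46. The shares called were 15.8% of amino acid transporters, 9.09% of iron, 8.82% of lysosome, 8.7% of histone, 8.33% of serine, 5.56% of methylation and 3.7% of heat shock genes, against 9.1% of all genes. Without +FA library 1 the higher and lower counts were 3 and 3 for amino acid transporters, 3 and 6 for iron, 2 and 6 for lysosome, 5 and 0 for histone, 1 and 0 for serine, 2 and 7 for methylation and 4 and 2 for heat shock genes. Without any 1 other library 0 were lower in each of these 7 lists, and 1 or 2 histone genes, 0 or 1 iron gene, 0 or 1 amino acid transporter and 0 genes of the other 4 lists were higher.

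**Figure D4:**
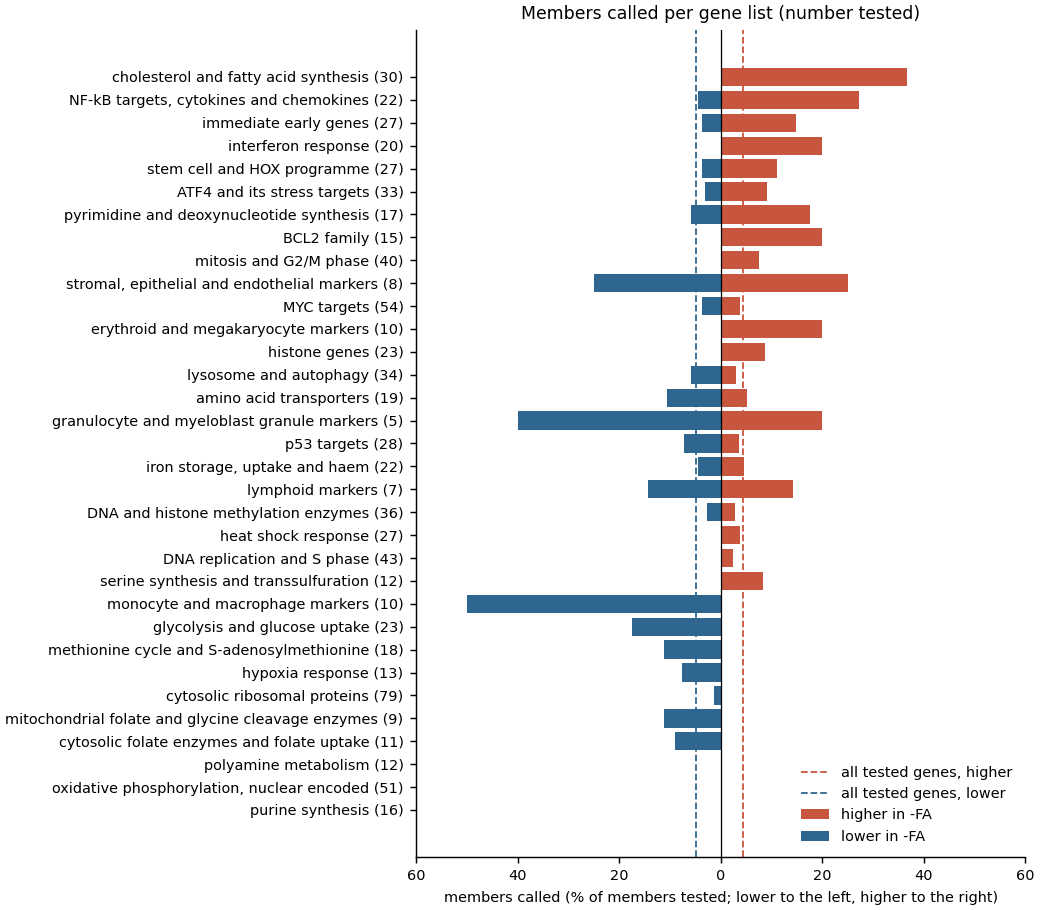
Share of tested members called higher (red, to the right) or lower (blue, to the left) in -FA against +FA IMS-M2 DMSO libraries, for 33 gene lists with the number tested. Dashed lines give the shares over all tested genes, 4.33% higher and 4.78% lower, and the sterol list reaches 36.7% higher.

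How far the DMSO pattern was present under OTX was asked with the other 6 IMS-M2 libraries, which come from the same tables and so share any effect of the table. Under OTX 480 of 11215 genes were called between -FA and +FA cells (4.28%), 372 higher (3.32%) and 108 lower (0.963%). Of the 1004 genes called in DMSO, 126 were called in the same direction under OTX, which is 12.5% of the DMSO calls and 26.2% of the OTX calls, and 4 in the opposite direction. The difference between the DMSO change and the OTX change passed its own test for 723 of 11215 genes (6.45%). That count was 3353 without +FA DMSO library 1, 1201 without -FA OTX library 2 and 97 to 270 without any 1 of the other libraries.

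The genes in the next sentences were chosen for their change in DMSO, which is 1 side of the difference, so whether a difference passed describes them and supports nothing. The difference between arms did not pass for H19, S100A4, LPXN and BMF. H19 fell by 1.98 under OTX, with 6.72 ± 0.71 FPKM in -FA cells and 29.6 ± 4.46 in +FA cells (mean ± SD, n = 3 each), and its difference between arms was 0.25 (SE 0.17, adjusted p = 0.31). S100A4 rose by 1.16 under OTX and LPXN by 1.16, with differences of 0.46 and -0.18. BMF rose by 0.82 there, with a difference of 0.05 (SE 0.15, adjusted p = 0.85). FCER1A, ENPP2, CBLN2, KCNK17, MPO and CSF1R differed between arms, and each difference passed with any 1 of the 12 libraries left out. In the OTX libraries several of them were near 0: MPO averaged 0.0059 FPKM in -FA cells and 0.0041 in +FA cells, and ENPP2 0.13 and 0.20 FPKM in the same order. IL8 also differed, by 0.80 (SE 0.11, adjusted p = 0.00311), with 0.36 ± 0.01 FPKM in -FA cells and 0.25 ± 0.09 in +FA cells under OTX.

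The arms also differed in ATF4 and its stress targets, the genes of amino acid supply and charging that the integrated stress response raises. In DMSO 3 of 33 tested members were higher and 1 lower, with a median of -0.03. The share called was 12.1%, against 9.1% of all genes. Without +FA DMSO library 1 there were 8 higher and 4 lower, and without any 1 other DMSO library 0 higher and at most 1 lower. Those higher were CEBPB by 0.67, PHGDH by 0.44 and TRIB3 by 0.38, and the lower one was DDIT4. Under OTX 15 were higher and 0 lower, with a median of 0.39, where 4.28% of all genes were called. The difference itself passed for 14 members, 13 of them with the lower change in DMSO, against 6.45% of all genes. It passed for 11 to 19 members with any 1 of the 12 libraries left out. With GC content and length removed it passed for 17.

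CHAC1, a glutathione-degrading ATF4 target, had 5.13, 4.59 and 5.35 FPKM in -FA cells with DMSO, against 7.25, 5.99 and 6.06 FPKM in +FA cells, a change of -0.30 (adjusted p = 0.0838). Under OTX it had 16.5 ± 1.505 FPKM in -FA cells and 4.26 ± 0.63 in +FA cells and rose by 1.74. The difference between the DMSO change and the OTX change was -2.04 (SE 0.15, adjusted p = 4.81e-05). DDIT4, a stress-induced inhibitor of mTORC1, fell by 0.46 in DMSO, with 13.1, 12.9 and 13.3 FPKM in -FA cells and 18.4, 18.8 and 17.9 FPKM in +FA cells, and rose by 1.38 under OTX. PCK2, the mitochondrial phosphoenolpyruvate carboxykinase, had a change of -0.17 in DMSO (95% interval -0.35 to 0.01) and rose by 1.37 under OTX. ASNS, asparagine synthetase, had changes of -0.03 in DMSO and 1.21 under OTX, and PSAT1, of serine synthesis, changes of 0.21 and 1.22 in the same order. These 5 differences passed with any 1 library left out. CHAC1, DDIT4 and PCK2 were named for the size of this same difference. ASNS and PSAT1 are list members named with earlier results of these data known. That the 5 differences passed therefore describes these genes and supports nothing.

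More sterol genes passed under OTX than in DMSO. Under OTX 22 of 30 were higher and 0 lower, with a median of 0.52, where 3.32% of all genes were higher and 0.963% lower. In DMSO 11 were higher, with a median of 0.19, where 4.33% of all genes were higher. The difference passed for 10 genes, each with the lower change in DMSO, against 6.45% of all genes. With 1 library left out it passed for 2 to 18, the lowest without -FA OTX library 3. Those 10 included fatty acid genes that had not passed in DMSO. FADS1, a desaturase of polyunsaturated fatty acids, differed by -0.70, SCD by -0.58 and FASN by -0.80. With each of the 12 libraries left out in turn, FADS1 passed in 12 cases, SCD in 11 and FASN in 4. The differences for HMGCS1, CYP51A1, FDPS, SQLE and MVK did not pass. For FDPS it was -0.03 with an SE of 0.10.

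U937 in DMSO gave another pattern. The tables of U937 are separate again, and in the -FA table columns could be assigned to the group but not to single labels. Of 11965 genes 1383 were called (11.6%), 931 higher (7.78%) and 452 lower (3.78%). Of the 1004 genes called in IMS-M2, 52 were called in the same direction in U937, which is 5.18% of the IMS-M2 calls and 3.76% of the U937 calls, and 90 in the opposite direction. The difference between the IMS-M2 change and the U937 change passed for 2550 of 11965 genes (21.3%). With 1 library left out that count was 1039 to 3549. It was 1039 without U937 +FA library 2, 1200 without IMS-M2 +FA library 3, 1283 without IMS-M2 -FA library 2, 1436 without U937 +FA library 3, 1465 without 1 U937 -FA library, 1559 without IMS-M2 -FA library 1 and 1654 without IMS-M2 -FA library 3. Of the leading genes, LPXN rose by 0.94 in U937. HPGD, FCER1A, CBLN2 and KCNK17 were listed at 0 in all U937 DMSO libraries.

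For sterol synthesis the difference between the lines was tested directly. The genes named here and in the U937 paragraphs that follow were called in IMS-M2 DMSO, which is 1 side of the difference. The lists were chosen with earlier results of these data known. Whether a difference passed therefore describes these genes and supports nothing. In U937 0 of 30 sterol and fatty acid genes were higher without folic acid and 5 were lower, with a median of -0.10. Over all genes in U937, 7.78% were higher and 3.78% lower. The difference passed for 16 genes, each with the higher change in IMS-M2, against 21.3% of all genes. It passed for 11 to 16 with any 1 of the 12 libraries left out. SQLE differed by 1.55 (SE 0.38, adjusted p = 0.0192), INSIG1 by 1.13 (SE 0.22, adjusted p = 0.00824) and HMGCS1 by 0.91 (SE 0.15, adjusted p = 0.00503). SQLE passed in 11 of the 12 fits with 1 library left out, and INSIG1 and HMGCS1 in 12. HMGCS1 had 21.5 ± 2.50 FPKM in U937 -FA cells and 21.6 ± 0.85 in U937 +FA cells, a change of -0.01 (SE 0.11). INSIG1 fell by 0.65 there, with 177 ± 50.5 FPKM in -FA cells and 272 ± 13.9 in +FA cells.

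Monocyte markers also differed between the lines. In U937 16 of 21 tested markers were higher without folic acid and 0 lower, with a median of 0.84. Over all genes in U937, 7.78% were higher and 3.78% lower. In IMS-M2 5 of 10 markers were lower and 0 higher. The difference passed for 14 markers, each with the lower change in IMS-M2, against 21.3% of all genes. It passed for 13 to 15 with any 1 library left out. Of these 14, 6 were below the 1 FPKM minimum in IMS-M2 DMSO cells and entered only through U937. CD68 rose by 1.04 in U937, with 40.04 ± 5.24 FPKM in -FA cells and 19.0 ± 2.37 in +FA cells, and the difference was -1.69 (SE 0.18, adjusted p = 0.000442). CSF1R rose by 0.71 in U937 and ITGAM by 1.02, and both differences passed. Of 34 lysosome and autophagy genes 14 differed, 13 of them with the lower change in IMS-M2, and 7 to 17 with 1 library left out. For CTSB the difference was -1.09. Of 40 mitotic genes 21 differed, each with the higher change in IMS-M2, and 7 to 25 with 1 library left out. In U937 16 of these 40 were lower and 0 higher, against 3.78% lower and 7.78% higher over all genes there. The lysosome and mitotic counts of differences also stand against 21.3% of all genes.

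The difference between lines did not pass for IL8, NFKBIA, BMF and BCL2A1. IL8 rose by 1.25 in U937 and the difference was -0.34 (SE 0.16, adjusted p = 0.132). NFKBIA rose by 0.42 there, with a difference of -0.02 (SE 0.09, adjusted p = 0.895). BMF rose by 0.60, with 5.32 ± 0.07 FPKM in -FA cells and 3.17 ± 0.20 in +FA cells, and BCL2A1 by 0.62. A difference that misses the threshold does not show that the lines responded alike.

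**Figure D5:**
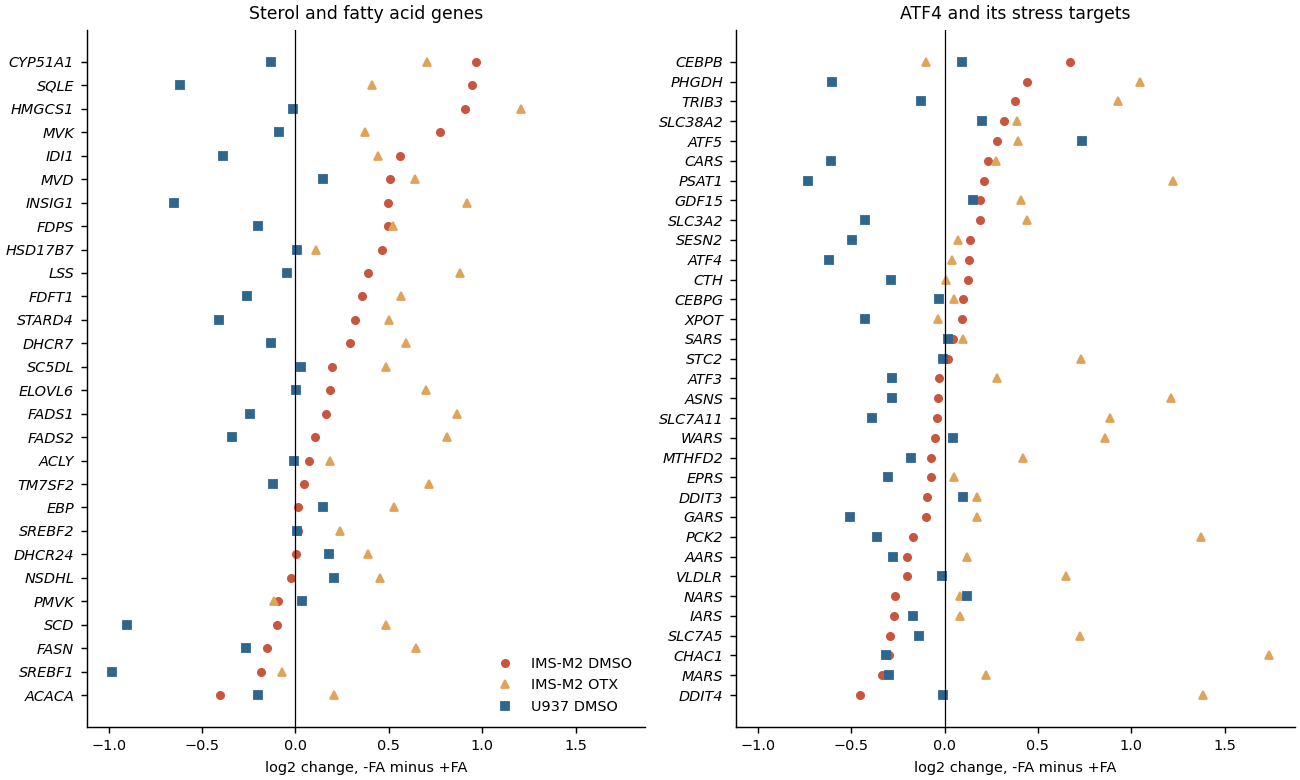
Log2 change, -FA minus +FA, for tested sterol and fatty acid genes (left) and ATF4 and its stress targets (right) in IMS-M2 DMSO (red circles), IMS-M2 OTX (yellow triangles) and U937 DMSO (blue squares) libraries. In the right panel CHAC1, DDIT4, PCK2 and ASNS are above 1 under OTX and below 0 in DMSO, and in the left panel SQLE and INSIG1 are above 0 in both IMS-M2 arms and below 0 in U937.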

How the data were processed

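The deposited values are FPKM per gene, made by the authors. The file headers name no unit, which was taken from the fractional values and the Cuffdiff layout. Tools listed, with no role or order, in the submitters' processing notes are Cuffdiff 2.2.1, TopHat2 2.1.1 and bcl2fastq 2.17.1.14, and the listed build is hg19. Per the labels' protocols, libraries were made with a stranded kit from polyadenylated RNA. Whether counting used strand is not given in the sources used here. There are 4 tables, 1 per line and folic acid condition.

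The FPKM were rescaled by median of ratios and log2(FPKM + 1) was tested with limma 3.58.1 in R 4.3.3 (group means, eBayes with trend, Benjamini-Hochberg over all genes tested, called under 0.05). Intervals are 95%. The pseudocount understates changes of low genes. The main test used the 6 libraries. Differences between arms or lines used 12. In a test on simulated data of 11028 genes, 90% of genes made to change by a log2 of 1 and 39% of those made to change by 0.5 were called, with 5 false calls among 134. The simulation drew noise independently for each gene and library, with the same spread in both groups. Changes were planted only in genes above a minimum level. No simulated library stood apart as +FA library 1 does, so these rates may not hold for the real libraries.

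Named genes were 16 chosen for their role, up to 12 leading called genes per direction with a mean of at least 5 FPKM, non-overlapping groups and no small RNA symbol, up to 4 called members per list and direction by smallest p, and the 6 largest called differences per test of a difference. Other list members are named where a count turns on them. Some members are counted in the lists but not reported here by name. The members, lists and rules were chosen with earlier results of these data known, so no list is independent evidence. Alternatives were no or another rescaling, other pseudocounts and filters, leaving out each library, a replicate block and removal of GC and length trends (10235 of 11028 genes matched to a GENCODE v29 transcript). The last, and the counts of list members and of differences without each library, were added after the data were seen. Of the genes listed, 6388 share a locus with another gene, 255 of them among the 1004 called. They include H19, ACTA2, FAS, MAT2A, AMT, FDPS, BAD and SQSTM1, and their positions cover the whole locus.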

Additional observations from a re-analysis of the deposited data

Results flagged for a closer look

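Results stood out here because the effect of folic acid removal differed, by a test of the difference itself, between groups. Between DMSO and OTX in IMS-M2, 723 genes differed. On the log2 scale, DMSO change minus OTX change, the 6 leading genes were lower in DMSO for C21orf90 (-1.59), DDIT4 (-1.84), CHAC1 (-2.04), FAM45A (-1.58) and PCK2 (-1.54), and higher for EMC6 (1.62). Among the sterol and fatty acid genes the differences reported were LSS (-0.49), TM7SF2 (-0.67), NSDHL (-0.48), ACACA (-0.61), FASN (-0.80), SCD (-0.58), ELOVL6 (-0.51), FADS1 (-0.70) and FADS2 (-0.71). CHAC1, DDIT4 and PCK2 passed with each of the 12 libraries left out in turn, while EMC6 passed in 2 of the 12 and C21orf90 and FAM45A in 6. Of the sterol and fatty acid genes, FADS1 passed in 12 of these fits, SCD in 11, TM7SF2 in 6 and FADS2 in 5. FASN passed in 4, ELOVL6 in 3, and LSS, NSDHL and ACACA in 2 each. C21orf90, EMC6 and FAM45A share a locus with another gene, as do TMEM183A, RPS25 and SLMO2-ATP5E below.

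Between IMS-M2 and U937 in DMSO, 2550 genes differed. As IMS-M2 change minus U937 change, the leading genes with the higher change in IMS-M2 were LOC100507217 (2.27), TMEM183A (2.09), RPS25 (2.42) and MZT1 (1.97), and those with the lower were SLMO2-ATP5E (-3.15) and GRN (-1.93). RPS25 had 1373, 1242 and 1092 FPKM in IMS-M2 -FA cells, against 1083, 437 and 288 FPKM in IMS-M2 +FA cells. It passed in 3 of the 12 fits with 1 library left out, SLMO2-ATP5E in 4 and LOC100507217 in 6. GRN, which encodes the lysosomal protein progranulin, passed in all 12. It had 111, 97.7 and 110 FPKM in IMS-M2 -FA cells and 145, 135 and 167 FPKM in IMS-M2 +FA cells, and it rose by 1.43 in U937. The sterol and fatty acid genes with a higher change in IMS-M2 were CYP51A1 (1.09), HMGCS1 (0.91), FDPS (0.69), MVK (0.85), SREBF1 (0.79), IDI1 (0.94), FDFT1 (0.61), SQLE (1.55), LSS (0.42), HSD17B7 (0.44), DHCR7 (0.41), INSIG1 (1.13), STARD4 (0.72), SCD (0.80), FADS1 (0.40) and FADS2 (0.43). MVK passed in 5 of the 12 fits with 1 library left out, and SREBF1, DHCR7, FADS1 and FADS2 each in 3. SQLE passed in 11 and the others of these genes in 12. The part of the separate tables in these differences was not tested.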

How the results depend on the processing

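Depth is unknown, so no counting error could be given. The count of 1004 genes called between -FA and +FA IMS-M2 DMSO libraries was 529 with every library scaled to the same FPKM sum, where the median change of all genes was 0.05. It was 447 with no filter on low values and 2298 with all 12 IMS-M2 libraries in the fit. It was 69 to 3934 with 1 library left out, where fewer samples enter each fit. With a replicate block it was 1741, of which 978 were among the 1004, and with the block and GC and length removed 1504. Deviations of same-numbered libraries correlated at 0.105, -0.00432 and 0.207, and library 2 correlated best with other numbers, so the numbers were not taken to pair libraries. Of the calls 47.5% were higher, and 35.3% without +FA library 2. The 723 differences between the DMSO and OTX changes became 2420 with the block, 446 with no filter, 2200 with GC and length removed and 97 to 3353 with 1 library left out. The 2550 differences between the lines became 1039 to 3549 with 1 library left out. For them no paired analysis was possible because U937 -FA columns carry no label number. Other settings kept each of these 3 counts within 1.5 times. All 98 called named genes kept their direction, and 98 stayed called without +FA library 1, against 22 to 43 without any other. Signs flipped only for uncalled genes near 0. With 1 library left out the range was -0.023 to 0.040 for SHMT2, -0.17 to 0.028 for MTHFD2, -0.11 to 0.014 for MTR, -0.11 to 0.10 for SLC19A1 and -0.012 to 0.29 for GGH. SHMT2 was -0.0038 with no rescaling, SLC19A1 0.024 with equal sums and MTR 0.041 with GC and length removed, with or without the block. The cause of these changes was not tested.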
